A study of Mus musculus with 8 samples.

Results

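SR splicing factors carry stretches rich in arginine and serine and guide the choice of splice sites. They are examined here as 10 mouse genes, Son, Srrm1, Srrm2, Srsf1, Srsf2, Srsf3, Srsf5, Srsf6, Srsf7 and Srsf11, which lie on 7 chromosomes. A methyl mark within RNA, N6-methyladenosine (m6A), had been mapped in E14 mouse embryonic stem cells (mESCs) by precipitating fragments of chromatin-associated RNA (ChrRNA, a fraction rich in unspliced transcripts) with an m6A antibody and sequencing them beside their input. The 8 libraries form 4 groups of 2 replicates: SySy_ChrMeRIP and SySy_Input with the antibody of Synaptic Systems, and Abcam_ChrMeRIP and Abcam_Input with that of Abcam. All of them come from 1 untreated cell line grown in serum and LIF on gelatine, and the labels do not say whether the replicates were separate cultures. The peaks had been called on the pooled duplicates and sorted into confidence groups (Cfg): 5277 peaks called with both antibodies (Cfg1), 5472 called with SySy where the Abcam signal stayed under the threshold (Cfg2) and 6319 called with Abcam only (Cfg3). Cfg1 and Cfg2 peaks are named SySy-called below.

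A peak belonged to a gene where its midpoint lay within the gene's span on the same strand (GENCODE annotation, mm10 coordinates). By this rule 33 of the 17068 peaks lay in the 10 genes. They comprised 19 SySy-called peaks (4 Cfg1 and 15 Cfg2) and 14 Abcam-only peaks. The same 33 peaks were found when any overlap with the span sufficed, when the whole peak had to lie inside it and when only the representative transcript was used, and the nearest peak left out on the same strand lay 5867 nt beyond the span of Srrm1. No peak of the opposite strand fell within these spans. The lists hold no height, no read depth and no value per library, so depth is unknown here, no error between replicates could be given, and a gene without a peak cannot be told apart from a gene with few reads. Of 7 markers of embryonic stem cells, 7 had a peak, against 0 of 6 fibroblast markers, beside 25.1% of all protein-coding genes. With so few genes and no depth, the 0 does not show that fibroblasts were absent.

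In mammals, SR proteins bind exonic enhancers through RNA recognition motifs and recruit spliceosome components through their RS domain, which the kinases of the SRPK and CLK families phosphorylate. They limit their own levels: an SR protein in excess promotes inclusion of a poison exon or retention of an intron in its own transcript, and the premature stop codon that this brings sends the transcript to nonsense-mediated decay (NMD). m6A is written while RNA is being made, mostly at DRACH sequences (A, G or T; A or G; A; C; A, C or T), of which GGACT is a frequent form. In messenger RNA it is known for long internal exons and for the neighbourhood of stop codons.

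The marked genes were unequal. Son had 12 peaks and Srrm2 had 8, which made 20 of the 33, Srrm1 and Srsf11 had 3 each, Srsf5 and Srsf6 2 each, and Srsf1, Srsf2 and Srsf7 1 each. Srsf3 had none. Cfg1 peaks lay in 1 of the 10 genes, Son, beside 7.79% of the 35325 annotated genes used. Cfg2 peaks lay in 8 genes (all but Srsf1 and Srsf3), beside 8.89% of annotated genes, and Cfg3 peaks lay in 5 (Son, Srrm1, Srrm2, Srsf1 and Srsf11), beside 8.6%. In all, 9 of the 10 genes had a peak of some list, beside 16.3% of annotated genes. These annotated genes include genes that are silent in mESCs, and the lists hold no expression values. The study's gene-level results on newly made RNA of another mESC line were not used. The members were therefore not set beside genes of like level. Among protein-coding genes alone the shares were 12.1%, 13.7% and 13.3% for Cfg1, Cfg2 and Cfg3, and 25.1% for any list.

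**Figure D1:**
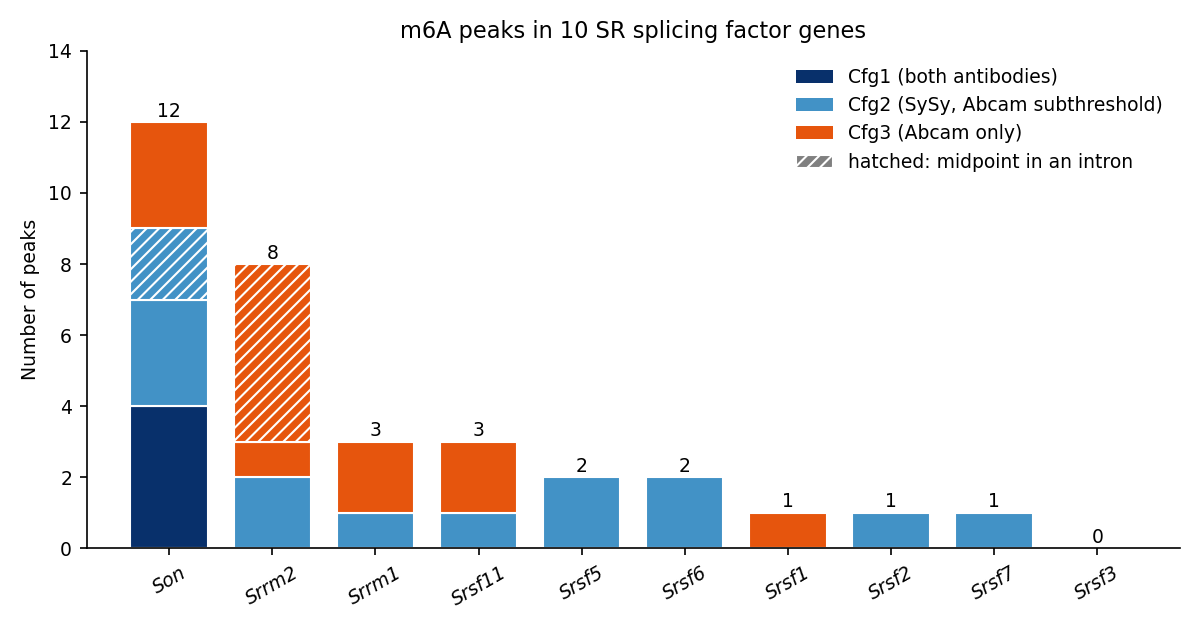
Number of m6A peaks (y axis) in each of the 10 SR splicing factor genes (x axis), stacked by list, with hatching where the midpoint lay in an intron. Son (12 peaks) and Srrm2 (8 peaks) hold most of them, the 4 Cfg1 peaks are all in Son, and Srsf3 has none.

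Son encodes a very large protein of nuclear speckles, which in human cells is needed to splice introns with weak splice sites. Its gene (chr16:91647506-91679221, plus strand) had 9 SySy-called and 3 Abcam-only peaks. Among the 4491 genes with a SySy-called peak the median was 2, and 103 of them (2.29%) had 9 or more. That rank takes no account of transcript length. Exon 3 of the representative transcript Son-203 is 5970 nt long, within a transcript of 8731 nt and a coding sequence (CDS) of 7431 nt, and it held 10 of the 12 peaks, all in CDS. The 4 Cfg1 peaks lay at chr16:91654883-91655132, chr16:91656382-91656614, chr16:91656616-91656750 and chr16:91659600-91659713. The Cfg2 peaks in this exon were chr16:91655865-91656058, chr16:91656060-91656296 and chr16:91656867-91657116, and the Abcam-only peaks, chr16:91659324-91659421, chr16:91659423-91659516 and chr16:91660105-91660207, clustered towards its 3′ end. Peaks divided at a point between summits count separately here, and the 9 SySy-called peaks of Son came from 5 broad regions.

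The sequence under the central Son peaks is a tandem repeat that carries GGACT. Exon 3 has 15 GGACT, and 13 of them form an array whose adenosines lie between chr16:91656546 and chr16:91656936, 391 nt in all. Neighbouring copies were 30 nt apart in 11 of the steps and 60 nt apart in 1. Of the 13 copies, 6 lay under Cfg1 peaks, 3 under the Cfg2 peak that follows, and 4 in the 116 nt between them that no peak covers. The peaks are printed below from the GRCm38.p6 assembly, 5′ to 3′ on the plus strand, with GGACT in capitals, since they show the repeat and, in the first, a neighbouring part of the same broad region that has no DRACH.
Son exon 3, Cfg2, chr16:91656060-91656296: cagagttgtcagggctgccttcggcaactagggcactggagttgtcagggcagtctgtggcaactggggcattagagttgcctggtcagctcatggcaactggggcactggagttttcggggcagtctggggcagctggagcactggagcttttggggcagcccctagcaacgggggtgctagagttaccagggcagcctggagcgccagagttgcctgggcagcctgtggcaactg
Son exon 3, Cfg1, chr16:91656382-91656614: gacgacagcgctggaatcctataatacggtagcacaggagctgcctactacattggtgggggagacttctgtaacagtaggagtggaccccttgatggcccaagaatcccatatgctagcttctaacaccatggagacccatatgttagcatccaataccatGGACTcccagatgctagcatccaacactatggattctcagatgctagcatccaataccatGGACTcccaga
Son exon 3, Cfg1, chr16:91656616-91656750: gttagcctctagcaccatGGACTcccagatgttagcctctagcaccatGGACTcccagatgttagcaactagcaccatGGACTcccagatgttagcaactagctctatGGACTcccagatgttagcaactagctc
Son exon 3, Cfg2, chr16:91656867-91657116: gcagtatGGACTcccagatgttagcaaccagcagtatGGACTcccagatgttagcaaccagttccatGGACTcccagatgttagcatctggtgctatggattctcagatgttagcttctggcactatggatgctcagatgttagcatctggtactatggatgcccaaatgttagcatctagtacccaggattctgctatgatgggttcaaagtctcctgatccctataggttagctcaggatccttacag
The 2 adjoining Cfg1 peaks hold 2 and 4 GGACT and the Cfg2 peak holds 3, whereas the other Son peaks hold none. Of 317 windows of 75 nt (the read length) inside the array, 24 (7.57%) were not unique in the genome. No window of exon 3 occurred more than 2 times, and whether the other copy lies within the array was not examined. The effect of these copies on the calls was not tested.

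Srrm2 encodes a scaffold protein of nuclear speckles, and its representative transcript Srrm2-210 (8864 nt, CDS of 8109 nt) also has a giant coding exon. Exon 11 (chr17:23815122-23821690, plus strand) is 6569 nt long, longer than exon 3 of Son. It had no SySy-called peak, while exon 3 of Son had 7. Its single peak was Abcam-only (chr17:23818282-23818447) and covered 2 of the exon's 6 GGACT. Per kb the exons were alike in DRACH, with 21.6 in Son and 22.2 in Srrm2, and unlike in GGACT, with 2.51 in Son and 0.913 in Srrm2. A comparison chosen after these values were seen took in 148 internal exons of protein-coding genes, each at least 3000 nt long. Of these, 72 (48.6%) had a SySy-called peak. Of the 93 in genes with a peak of any list, as Srrm2 is, 72 (77.4%) did. That filter keeps every exon with a SySy-called peak and drops only exons without, so the second share is higher by construction. Exon 3 of Son was among the 12 with 7 or more such peaks and among the 2 with at least as many GGACT. Of the 18 exons as long as exon 11 of Srrm2 or longer, 14 had no SySy-called peak, but 10 of these were in genes with no peak at all. Among the 8 in genes with a peak, a filter with the same limit, 4 had no SySy-called peak, exon 11 of Srrm2 among them. The median over the 148 exons was 0.912 GGACT per kb, which is the level of Srrm2.

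**Figure D2:**
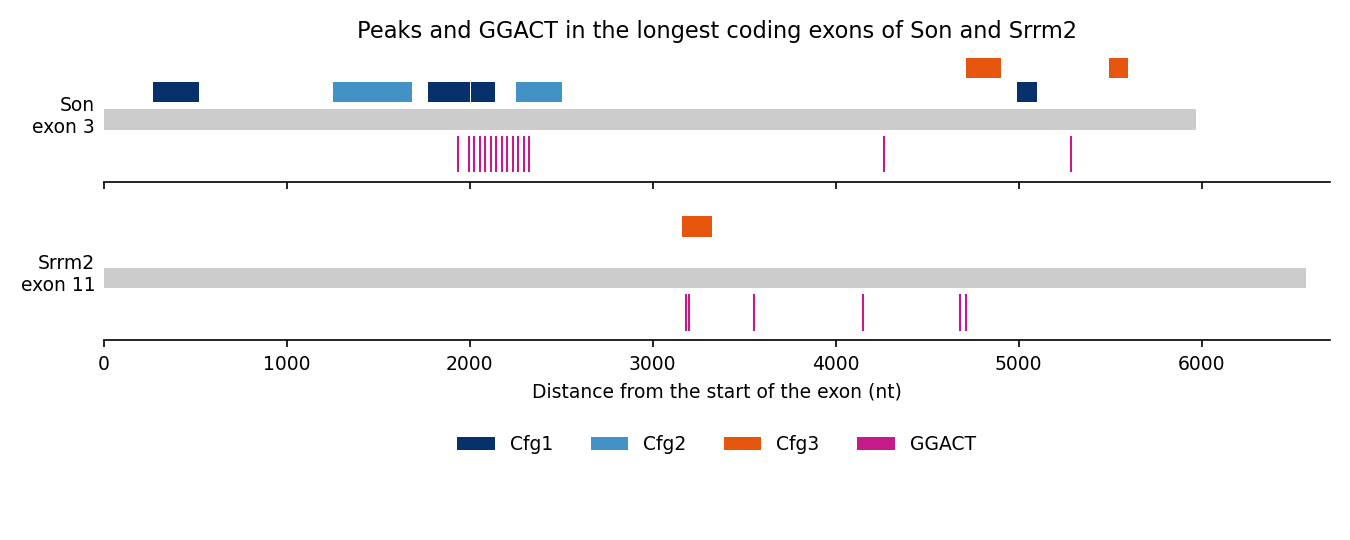
Peaks and GGACT along exon 3 of Son and exon 11 of Srrm2 against the distance from the start of each exon (nt). Coloured boxes above the grey exon are peaks by list and ticks beneath it are GGACT; 13 of the 15 GGACT of the Son exon are in an array beside Cfg1 and Cfg2 peaks, while the Srrm2 exon has 6 GGACT and 1 Abcam-only peak.

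The other 7 peaks of Srrm2 (chr17:23790532-23824741) lay upstream, and 6 of them formed a run of 1026 nt over exon 2. From 5′ to 3′ they were 2 Abcam-only peaks in intron 1 (chr17:23806580-23806747 and chr17:23806749-23806860), 2 Cfg2 peaks over the exon (chr17:23806895-23806978, whose midpoint is in the 5′ UTR, and chr17:23806980-23807094 in CDS) and 2 Abcam-only peaks in intron 2 (chr17:23807249-23807421 and chr17:23807423-23807605). The antibody lists changed near the exon's borders. Base composition changed with them: G and C made up 69% and 69.6% of the SySy-called peaks, against 36.9%, 41.1%, 43.4% and 44.8% of the Abcam-only peaks. The part of base composition in the calls was not tested. Below are the SySy-called peak in CDS and the nearest Abcam-only peak of intron 2, as examples of both kinds, and then the peak in exon 11, with GGACT in capitals.
Srrm2 exon 2, Cfg2, chr17:23806980-23807094: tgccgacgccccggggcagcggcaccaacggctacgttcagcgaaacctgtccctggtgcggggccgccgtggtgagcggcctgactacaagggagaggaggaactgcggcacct
Srrm2 intron 2, Cfg3, chr17:23807249-23807421: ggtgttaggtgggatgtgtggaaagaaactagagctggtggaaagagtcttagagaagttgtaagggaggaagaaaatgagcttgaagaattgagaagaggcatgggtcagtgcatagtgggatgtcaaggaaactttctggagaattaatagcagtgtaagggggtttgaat
Srrm2 exon 11, Cfg3, chr17:23818282-23818447: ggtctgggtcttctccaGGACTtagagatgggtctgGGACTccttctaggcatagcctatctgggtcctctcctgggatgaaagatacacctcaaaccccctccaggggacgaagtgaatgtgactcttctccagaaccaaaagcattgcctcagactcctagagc
Purines (A and G) made up 55.7% of the exon 2 peak and 69.9% of the intron 2 peak.

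**Figure D3:**
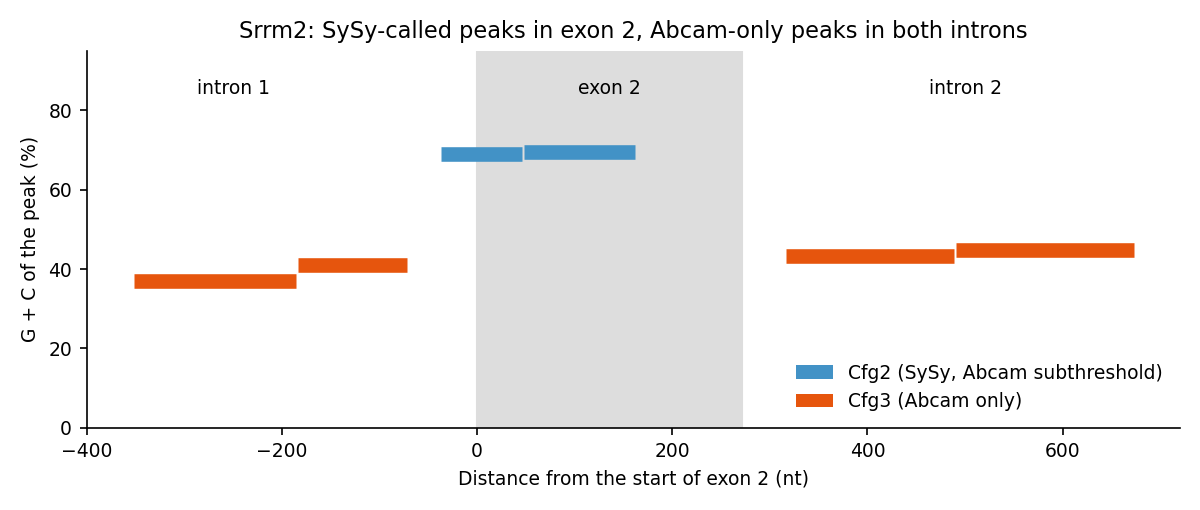
G and C content (%, y axis) of the 6 adjacent peaks of Srrm2 against the distance from the start of exon 2 (nt, x axis), with the exon shaded. The 2 Cfg2 peaks over the exon are at 69% and 69.6% and the 4 Abcam-only peaks in the introns between 36.9% and 44.8%.

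Srrm1 encodes a splicing coactivator that binds RNA and associates with exon junction components. Its gene (chr4:135320484-135353321, minus strand) had 1 Cfg2 peak in exon 3 (chr4:135346787-135346913) and 2 adjoining Abcam-only peaks in exon 17 (chr4:135322375-135322454 and chr4:135322456-135322537), all with the midpoint in CDS. Srsf11, an SR protein with an RNA recognition motif, had 3 peaks near the end of its transcript (gene at chr3:158010473-158036639, minus strand). The Cfg2 peak (chr3:158011926-158012029) was centred in the 3′ UTR, 35 nt past the last coding base, and the Abcam-only peaks were in CDS, in exon 13 (chr3:158012060-158012257, at -146 nt from that base) and in exon 12 (chr3:158012363-158012470, at -298 nt). Purines made up 53.5% of the SySy-called peak of Srrm1, against 72.5% and 63.4% of its Abcam-only peaks. In Srsf11 they made up 47.1% of the SySy-called peak, against 75.9% and 61.6% of the Abcam-only peaks. The most purine-rich peak of each gene is printed, on the minus strand of chr4 and chr3.
Srrm1 exon 17, Cfg3, chr4:135322375-135322454: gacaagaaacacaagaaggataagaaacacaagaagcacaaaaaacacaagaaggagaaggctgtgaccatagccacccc
Srsf11 exon 12, Cfg3, chr3:158012363-158012470: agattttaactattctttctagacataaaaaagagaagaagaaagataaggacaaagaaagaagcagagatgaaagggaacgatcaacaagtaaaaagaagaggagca
Neither has GGACT, and they hold 4 and 3 DRACH.

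The classical SR proteins are small, and their genes held few peaks by count, without correction for length. Srsf1, an SR protein that promotes use of proximal 5′ splice sites, had 1 Abcam-only peak in the CDS of exon 3 (chr11:88049054-88049213, plus strand) and no SySy-called peak. Srsf2, a marker protein of nuclear speckles, had 1 Cfg2 peak in the CDS of exon 2 (chr11:116852135-116852349, minus strand). That peak had no DRACH and 65.6% G and C. Srsf3, whose protein partners with the nuclear m6A reader YTHDC1 in human cells, had no peak in its span of 10746 nt (chr17:29032628-29043373, plus strand), and its representative transcript had 1 GGACT in 2618 nt. The sequences of the 2 peaks named here, and of the exon 2 peak of Srsf6 (Cfg2, in CDS), are shown because they cover the CDS peaks of the small SR genes that do not reach a UTR, with GGACT in capitals.
Srsf1 exon 3, Cfg3, chr11:88049054-88049213: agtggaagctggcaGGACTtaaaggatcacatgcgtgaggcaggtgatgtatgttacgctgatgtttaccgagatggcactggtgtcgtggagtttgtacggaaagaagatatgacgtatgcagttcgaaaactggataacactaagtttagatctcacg
Srsf2 exon 2, Cfg2, chr11:116852135-116852349, minus strand: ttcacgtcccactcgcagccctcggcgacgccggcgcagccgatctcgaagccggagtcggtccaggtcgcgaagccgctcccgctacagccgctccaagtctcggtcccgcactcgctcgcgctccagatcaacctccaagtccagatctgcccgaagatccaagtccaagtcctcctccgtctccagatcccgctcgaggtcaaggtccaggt
Srsf6 exon 2, Cfg2, chr2:162931970-162932104: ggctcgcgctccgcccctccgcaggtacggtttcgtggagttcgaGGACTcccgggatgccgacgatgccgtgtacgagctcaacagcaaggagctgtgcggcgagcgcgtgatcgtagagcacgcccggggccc
Srsf1 and Srsf6 each have 1 GGACT under the peak, and for Srsf6 it is the only one in the representative transcript.

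Srsf5, Srsf6 and Srsf7, SR proteins that act on splicing and, in the case of Srsf7, on polyadenylation and RNA export, each had a Cfg2 peak at the start of the transcript. For Srsf5 it was chr12:80945597-80945748, centred 141 nt from the transcript start at the last base of exon 1. For Srsf6 it was chr2:162931590-162931700, centred at 118 nt in the 5′ UTR of exon 1, and for Srsf7 chr17:80207126-80207235 (minus strand), centred at 126 nt in exon 1. Thus 3 of the 13 exonic Cfg2 peaks of the members were centred within 200 nt of a transcript start, and 0 of the 4 Cfg1 and 0 of the 9 exonic Abcam-only peaks were. In other genes 4.4% of exonic Cfg2 peaks (187 of 4247) lay there, 0.468% of Cfg1 peaks and 1.4% of Abcam-only peaks. The antibodies do not tell m6A from m6Am, a mark of the first base after the cap. The study's methods treat peaks near transcript starts as possible m6Am. None of the 3 peaks covers the first base of its representative transcript, and they hold 4 (Srsf5), 1 (Srsf6) and 0 (Srsf7) DRACH. Whether they hold m6A or m6Am was not tested. Srsf5 had a second Cfg2 peak, chr12:80950238-80950354, in the 3′ UTR of exon 8. It had 22.2% G and C, and 56 of the 75 windows of 75 nt over its midpoint were unique in the genome, whereas for the other 32 peaks all 75 were.

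Few exonic peaks of the members were centred near a stop codon. Among 26 exonic peaks of the members, 2 were centred within 200 nt of the last coding base, both in Srsf11, 1 of 17 SySy-called and 1 of 9 Abcam-only. In other genes 23.8% of exonic SySy-called peaks and 15.9% of exonic Abcam-only peaks were. This setting beside other genes is a description without a test, since 10 of the 26 peaks share exon 3 of Son. These 10 lie far from the stop codon, the nearest at -1641 nt from the last coding base. With the nearest edge of the peak in place of its midpoint, 4 peaks of the members were within 200 nt. No such count was made for other genes.

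Exonic peaks of the members often ran across a splice junction into intronic positions. Of the 17 exonic SySy-called peaks, 6 crossed a junction of the representative transcript, against 3 of the 9 exonic Abcam-only peaks. All 6 were Cfg2 peaks, and none of the 10 exonic Son peaks was among the 9. In other genes 3.95% of exonic SySy-called peaks and 18.3% of exonic Abcam-only peaks crossed a junction. The 3′ splice site was crossed in Srrm1 (both lists), Srrm2, Srsf2, Srsf6 and Srsf11 (2 Abcam-only peaks), and the first 5′ splice site in Srsf5 and Srsf7. The intronic part was 56 of 127 nt in the Cfg2 peak of Srrm1, 76 of 152 nt in Srsf5, 49 of 110 nt in Srsf7 and 18 of 215 nt in Srsf2. Of these junctions 5 are shown as examples, with 15 bases on each side and, in capitals, the first intronic bases GT or the last intronic bases AG.
Srsf7 intron 1, 5′ splice site, chr17:80207160-80207189, minus strand: ggcggtatggaggagGTaagcggccagggc
Srsf5 intron 1, 5′ splice site, chr12:80945658-80945687: gaccctgtccggtagGTgagtggcacgctt
Srsf6 intron 1, 3′ splice site, chr2:162931979-162932008: tccgcccctccgcAGgtacggtttcgtgga
Srsf2 intron 1, 3′ splice site, chr11:116852317-116852346, minus strand: acgtcccactcgcAGccctcggcgacgccg
Srsf11 intron 11, 3′ splice site, chr3:158012434-158012463, minus strand: aactattctttctAGacataaaaaagagaa
Junction crossing was looked at after the peaks were seen, and the peak borders depend on the trimming to a fixed reach around each summit.

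Poison exons and retained introns take up a small part of the introns of these genes. Other genes were counted only for the wider class of unproductive stretches, defined below. These held 2.22% of their SySy-called and 2.75% of their Abcam-only peaks. All 10 genes have NMD and retained_intron transcripts in the annotation, 18 and 37 in number. Together they define 11 poison cassette exons (38 to 460 nt, in 8 genes) and 11 introns retained whole (112 to 2150 nt, in 7 genes). The poison cassette exons sum to 2270 nt and the introns retained whole to 10334 nt, of 109018 nt of intron in the representative transcripts. No midpoint of the 33 peaks lay in a poison cassette exon or in an intron retained whole. With 7 intronic midpoints in all, no lack of peaks can be read from these counts. By the rule of 3 (3 over the number of peaks), 0 of 33 allows a share of up to 9.09%, if peaks are taken as independent. Of these 11 poison exons 3 contain a GGACT, as do 4 of the 11 retained introns. The poison exons of Srsf2 (chr11:116851648-116851751, 104 nt), Srsf3 (chr17:29039454-29039909, 456 nt), Srsf6 (chr2:162932815-162933082, 268 nt) and Srsf7 (chr17:80204622-80205081, 460 nt) had no GGACT. In this order they held 2, 7, 11 and 8 DRACH. The nearest peak edge was 384 nt away in Srsf2, 711 nt in Srsf6 and 2045 nt in Srsf7. SySy-called peaks over the exon upstream lay 39 nt from the retained intron 2 of Srsf6 and 53 nt from that of Srrm1 (intron 3). For intron 2 of Srsf2 the distance was 115 nt. Each of these introns also holds a poison exon, which is farther off, and Srrm1 has another poison exon in intron 8.

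One peak touched a poison exon. The Abcam-only peak of Srrm2 in intron 9 (chr17:23812008-23812150) overlapped by 70 nt a poison exon of 261 nt (chr17:23811817-23812077) of the NMD transcript Srrm2-203, and its midpoint lay 2 nt past the 5′ splice site of that exon. It lay whole within the first exon of the retained_intron transcript Srrm2-207 (chr17:23811900-23812620). Intron 9 is 696 nt long and the midpoint was 348 nt from its 5′ splice site. The peak had no DRACH, while the poison exon has 6, 1 of them GGACT. The splice site under the peak is shown with the first bases of the intron, GT, in capitals.
Srrm2 poison exon in intron 9, 5′ splice site, chr17:23812063-23812092: gaggtgggctcagagGTgagttgtgaatga
The other 4 intronic Abcam-only peaks, all in introns 1 and 2 of Srrm2, were not exonic in any other transcript.

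Of the SySy-called peaks 2 were intronic, both Cfg2 peaks in intron 4 of Son (chr16:91662601-91662674 and chr16:91662676-91662750). The intron is 1936 nt long and the midpoints were 376 and 452 nt from its 5′ splice site, within its first 19.4% and 23.3%. Both lay in a last exon of 1542 nt (chr16:91662492-91664033) that ends the short protein-coding transcript Son-201, 146 and 222 nt from its start. The last coding base of Son-201 is chr16:91662494, so this is 3′ UTR sequence in the short transcript and intron in the long one. They come from 1 broad region divided between summits, and hold 2 and 1 DRACH.

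**Figure D4:**
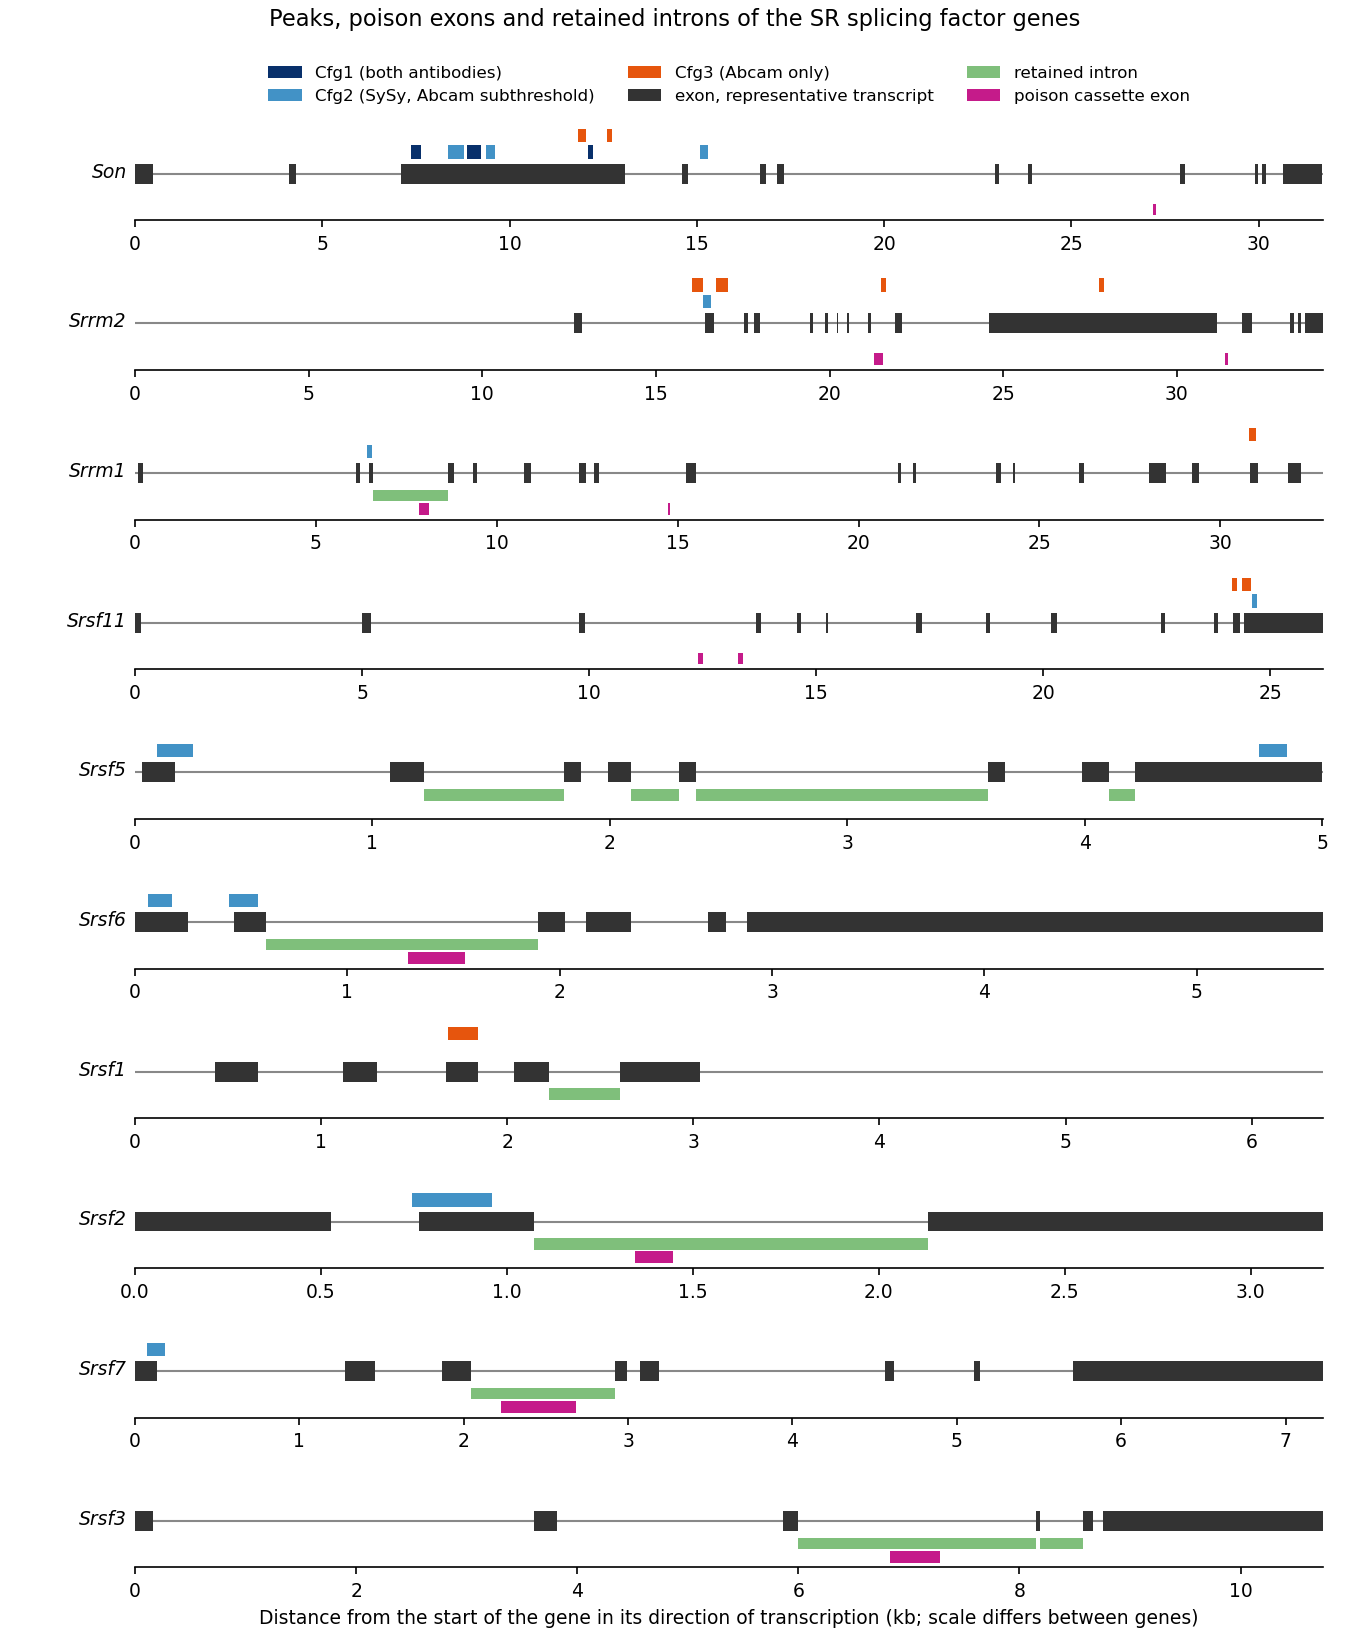
Maps of the 10 genes in the direction of transcription (distance from the gene start in kb, on a scale of its own for each gene). Black boxes are exons of the representative transcript, coloured boxes above them peaks by list (boxes are widened where too narrow to see), green boxes retained introns and magenta boxes poison cassette exons; the only contact of a peak with a poison exon is the Abcam-only peak in intron 9 of Srrm2.

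Whether the lists differed within these genes was tested for 3 shares by Fisher's exact test (two-sided), with Benjamini-Hochberg adjustment over the 3. Introns held 2 of 19 SySy-called peaks (10.5%, 95% Wilson interval 2.94 to 31.4%) and 5 of 14 Abcam-only peaks (35.7%, 16.3 to 61.2%). The difference of -25.2 percentage points did not pass (95% Newcombe interval -51.8 to 3.28, Fisher's exact test, p = 0.11, adjusted p = 0.32). The 5 intronic Abcam-only peaks were all in Srrm2, and without this gene the difference was 11.8 points (2 of 17 SySy-called and 0 of 8 Abcam-only). Without Son it was -45.5 points (0 of 10 and 5 of 11, exact p = 0.035, adjusted p = 0.11). In other genes introns held 8.75% of 10131 SySy-called peaks and 55.4% of 5564 Abcam-only peaks.

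GGACT lay in 4 of 19 SySy-called peaks (21.1%, 8.51 to 43.3%) and in 3 of 14 Abcam-only peaks (21.4%, 7.57 to 47.6%), a difference of -0.376 points (-29.4 to 25.9, Fisher's exact test, p = 1, adjusted p = 1). Of the 4 SySy-called peaks 3 were in the Son array and the other was in Srsf6, and the Abcam-only peaks were in Srrm2 (2) and Srsf1. DRACH lay in 16 of the 19 and 12 of the 14. In other genes GGACT lay in 35% of SySy-called and 17.2% of Abcam-only peaks. Unproductive stretches are exonic in an NMD or retained_intron transcript but outside the representative one. They held 0 of 19 SySy-called peaks (0%, 0 to 16.8%) and 1 of 14 Abcam-only peaks (7.14%, 1.27 to 31.5%). The difference was -7.14 points (-31.5 to 10.7, Fisher's exact test, p = 0.42, adjusted p = 0.64), and 0.42 is the smallest p that these totals allow. The count of 1 in 33 peaks is near the share in other genes given above. With any overlap counted, 2 of 14 Abcam-only peaks touched such a stretch, that of Srrm2 and the exon 12 peak of Srsf11, and the difference was -14.3 points. Peaks of 1 gene are not independent, so these p-values describe the counts and not replicates.

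**Figure D5:**
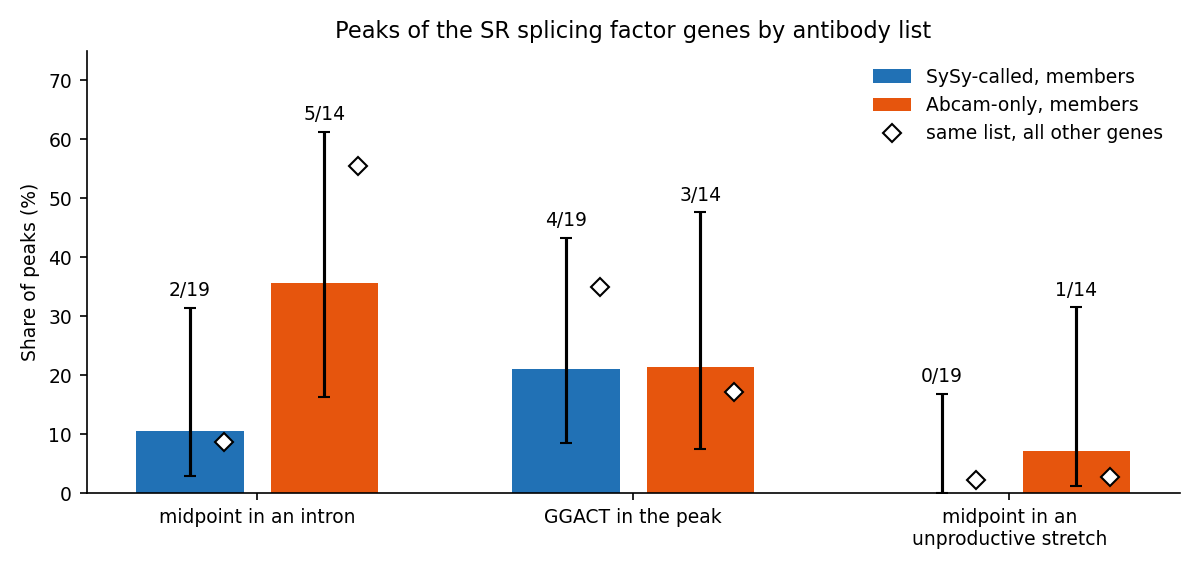
Share of peaks of the 10 genes (%, y axis) with the midpoint in an intron, with GGACT, or with the midpoint in an unproductive stretch, for SySy-called and Abcam-only peaks. Bars are shares, error bars 95% Wilson intervals, numbers above them peaks out of all peaks, and diamonds the shares in other genes; the intervals of both lists overlap in each of the 3 shares.

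Other genes of the same pathways were counted by the same rule. Beside them, 12.7% of all annotated genes and 19.7% of protein-coding genes had a SySy-called peak. Of 6 further SR proteins, 1 had a SySy-called peak (Tra2a, 1 in an intron), and 2 had Abcam-only peaks (Srsf4 with 3 and Srsf10 with 2). Of 7 kinases that phosphorylate SR proteins, 3 had SySy-called peaks: Srpk1 and Srpk2 had 2 each, beside 4 Abcam-only peaks each, and Clk3 had 2, both intronic. Among 19 SR-related proteins 9 had SySy-called peaks, most in Scaf8 (7), Scaf1 (6) and Scaf11 (6), which take their name from association with the C-terminal domain of RNA polymerase II. Among 26 hnRNP genes, whose proteins often oppose SR proteins at exons, 16 had SySy-called peaks, led by Hnrnpl (4, all intronic), Pcbp1 (4) and Hnrnpm (3). Of 10 NMD factors 6 had SySy-called peaks, with 5 in the kinase Smg1 and 3 each in Upf2 and Smg8. Among the members the count was 8 of 10; transcript length and expression were not matched between the lists, so their shares are not set against each other.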

How the data were processed

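Chromatin-associated RNA of E14 mESCs had been precipitated with each of 2 m6A antibodies and sequenced with its input (8 libraries in 4 groups). Per the methods, the authors called peaks with MACS2 2.1.1 (q of 0.05, extension of 100 nt) on duplicates of each antibody, cut them midway between summits and trimmed them to a fixed reach around each summit. HOMER is also named in the submitters' processing notes. The deposited score column was 0 for every peak, and the deposited interval positions were the values used. An aligner setting for multiply placed reads is not given in the sources used here. The labels name 1 library kit for all samples, whereas the methods name a different kit for each antibody, so antibody and kit cannot be told apart if the methods are right.

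Peaks were placed by midpoint on GRCm38.p6 with GENCODE release M21 (the study used a later one). Per gene, the transcript with the longest coding sequence, otherwise the longest noncoding one, was the representative. Pseudogenes, receptor segments and small structured RNAs were left out, and 35325 genes remained. In 1 entry a stray character in the strand field was dropped. Splicing the members' 107 transcripts from the assembly gave 107 of 107 annotated sequences. GGACT and DRACH were searched on the peak's own strand. Retained introns were introns lying whole within an exon of a retained_intron transcript, and poison cassette exons were internal NMD exons within an intron of the representative transcript.

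The 3 shares were compared by two-sided Fisher's exact tests, with Wilson and Newcombe 95% intervals that cover counting error only, a threshold of 0.05 on adjusted p, and placement and tests checked on simulated data. The genes, lists and tests were chosen with earlier results of these data known. All 10 members are named, and of each related list the 3 genes with the most SySy-called, then Abcam-only, peaks. The comparisons of giant exons, junctions, repeats and base composition were added after the peaks were seen. Alternatives covered the membership rule, the transcript, the rule of position, collapsed peaks, the motif and its window, peak width, the definition of stretches, the background and each gene left out. Scripts ran in Python 3.11.15, with scipy 1.17.1 for the tests and pysam for the genome.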

Additional observations from a re-analysis of the deposited data

How the results depend on the processing

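No paired analysis was possible because the lists come from pooled duplicates and hold no value per library; for the same reason replicates could not be left out, and since every score is 0 no stricter threshold could be tried. No alternative brought the tests of intron share and GGACT share past the threshold; the test of unproductive stretches could not pass it at the main totals. The difference in intron share was -25.2 points with the longest spliced transcript and with any exon overlap counted as exonic, and -25 points with 1 count per gene, list and feature. With each gene left out in turn it ran from -45.5 (without Son) to 11.8 points (without Srrm2, which reverses it). The difference in GGACT share was 1.5 points within 50 nt of the midpoint, -1.5 points for DRACH and -5 points without peaks of under 100 nt, and ran from -17.3 to 11 points with a gene left out, so it has no settled direction. The difference in unproductive stretches was -14.3 points with any overlap counted, and 3.38 points both with stretches exonic in any other transcript, which take in the 2 intronic Son peaks, and with the longest spliced transcript, which takes in the first-exon peaks of Srsf5 and Srsf7. It ran from -9.09 to 0 points with a gene left out. Leaving out a gene, an alternative added after the data were seen, left 21 (without Son) to 32 peaks. With protein-coding genes as background the shares were 12.1%, 13.7%, 13.3% and 25.1% for Cfg1, Cfg2, Cfg3 and any list. The number of members with a peak of each list was the same when an exonic midpoint was required.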

Other observations

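Over all 33 peaks, purines made up a median of 51.8% of the SySy-called peaks of the 10 genes (40.5 to 59.1%) and 65.2% of the Abcam-only peaks (48.2 to 75.9%). In other genes the medians were 51.6% for SySy-called and 63.6% for Abcam-only peaks, so the members follow the lists in this. The Abcam-only peaks of the members below 59.1% were in exon 3 of Son (56.1% and 48.9%) and in exon 11 of Srrm2 (48.2%). The Abcam-only peaks of Srrm2 introns ranged from 65% to 70.5%.

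In the 3′ part of exon 3 of Son, the Cfg1 peak chr16:91659600-91659713, called with both antibodies, lies between Abcam-only peaks on either side. In Srsf11 the SySy-called peak over the stop codon, which takes in 18 coding bases, and the Abcam-only peak before it are 30 nt apart. Of the 10 genes, 4 had both SySy-called and Abcam-only peaks (Son, Srrm1, Srrm2 and Srsf11).

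GGACT outside peaks remained in the representative transcripts. Of 16 GGACT in Son exons 9 lay under SySy-called peaks, whereas of the 7 in Srrm2 and the 2 in Srsf7 none did, and the transcript of Srsf5 has none although it holds 2 peaks. The lists hold no expression values or depth, so no reading of unmarked motifs was made.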
